A study of Mus musculus with 12 samples.

Results

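The samples described here were the 2 mouse livers taken at ZT2, set against the 10 livers of the same series taken at ZT6, ZT10, ZT14, ZT18 and ZT22. ZT2 is the early light phase (zeitgeber time, ZT, counts hours from lights on). A gene was counted as a member when both of its ZT2 values lay above, or both lay below, all 10 other values. Of 10198 expressed genes, 1056 were above and 977 were below, 2033 in all. Over the whole table of 20069 genes the same rule found 1384 above and 1137 below, of which 488 never reached the expression minimum and were not followed further. Acute phase proteins, the plasma proteins that the liver makes in inflammation, were kept apart: 24 of the members above and 1 of those below were on that list, which left 1032 and 976.

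All livers came from adult male C57BL/6 mice aged 3 to 6 months with no genetic change and no treatment, kept in 12 hr of light and 12 hr of dark. Mice were killed every 4 hr in 2 series, so each of the 6 times held 2 samples, numbered as series 1 and series 2. Poly(A) RNA was sequenced, and the signal of a gene is its mean read coverage over exons in reads per base pair (rpbp), here on a scale of 40000000 uniquely mapped reads. The labels do not say whether a sample was 1 animal or how the 2 series were housed. The errors below therefore measure only the spread between these pairs, which may be in part technical.

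The liver follows the day through a feedback loop in which CLOCK and BMAL1 drive Per, Cry and Rev-erb genes, whose products then repress them, and through feeding, which mice do mostly at night. ZT2 falls after the night's meals, when the rest phase begins. Many liver enzymes for drugs, fats and steroids are under nuclear receptors (CAR, PXR and PPARalpha), and a smaller set differs between male and female mice because growth hormone is released in a different pattern in each sex.

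The ZT2 pair stood apart from the other libraries as a whole. On the first principal component of all expressed genes, which held 39.5% of the variance, the ZT2 samples lay at 40.4 and 37.8, the series 2 sample of ZT22 at 21.8 and the other 9 between -28.0 and 5.45. The pair correlated with each other at r = 0.985 and with the nearest other sample, again ZT22 of series 2, at a mean of 0.970, across genes. Summed signal (1487469 to 1546116 rpbp) and the number of genes above 8 rpbp (8762 to 9108) were alike in all 12 libraries. Alb, which encodes albumin, took 3.26% and 3.5% of the signal at ZT2 and 6.16% to 8.21% elsewhere. The study's sequencing table lists the lowest shares of uniquely mapped reads for the same 2 libraries. ZT2 itself and anything else that those 2 libraries share cannot be told apart.

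Members were then counted in the same way for each time. ZT2 had more than any other: ZT6 had 579 above and 356 below, ZT10 had 273 and 426, ZT14 had 360 and 306, ZT18 had 129 and 319, and ZT22 had 219 and 157. A limma fit on log2(rpbp + 1), comparing ZT2 with the mean of the other 5 times, called 1016 genes higher and 1055 lower at a Benjamini-Hochberg adjusted p below 0.05. That is a background of 9.96% higher and 10.3% lower, 20.3% of the genes tested in all, against 10.4% above, 9.58% below and 19.9% in all for the rule. The rule and the fit read the same values, so the call of a member gives its size against the spread of pairs and is no separate support. Among members, 719 of those above and 782 of those below were called in their own direction, and 297 and 273 genes were called without being separate. With samples rescaled by the median of ratios the split turned towards lower genes, with 828 called higher and 1282 lower and 812 above and 1205 below. The fit of all genes had a median difference of 0.04, which that scaling moved to 0.007.

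**Figure D1:**
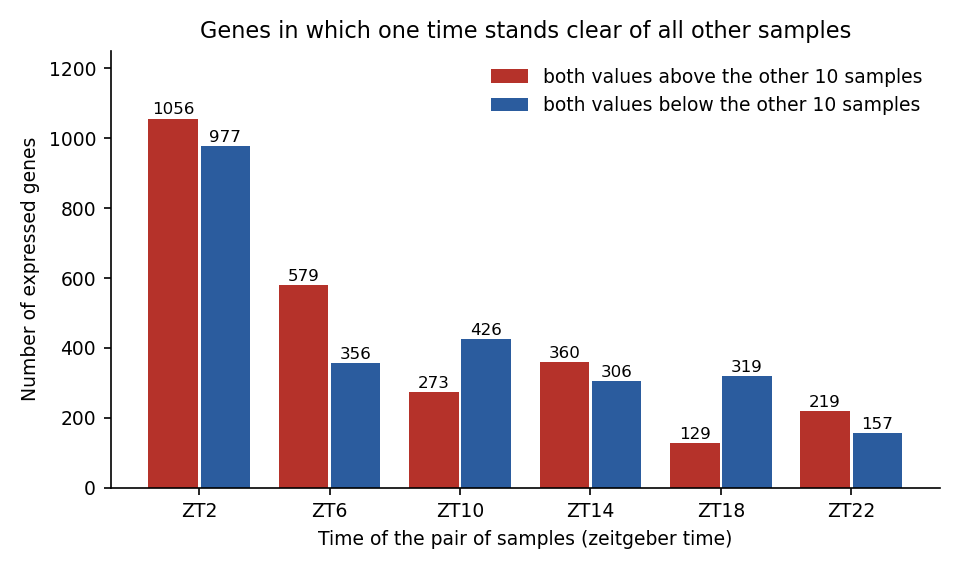
Number of expressed genes (y axis) in which both samples of a time lay above (red) or below (blue) the other 10 samples, for each of the 6 times (x axis). ZT2 has 1056 and 977, and the next highest counts are 579 above at ZT6 and 426 below at ZT10.

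Most members moved little. The ZT2 mean was a median of 1.33 times the other samples among genes above and 0.694 times among genes below. A fold of at least 2 was reached by 116 above and 207 below, and a gap of at least 2-fold to the nearest other sample by 13 and 35. At the edge of the rule, Kmo read 425 and 368.28 rpbp against a highest other value of 367.92 and was a member, whereas Itpk1 read 28.5 and 27.7 against a highest other value that equalled the lower of these and was not. Below, Aass (196 and 177 rpbp) lay just under the lowest other value of 195.88, and Itch (23.2 and 22.7 rpbp) tied it. Genes below were the more strongly expressed: their median level was 67.8 rpbp against 22.2 for genes above and 22.9 for all, and 41.2% of them exceeded 100 rpbp against 15.4% and 15.5%. Of the members above, 79 passed the expression minimum through ZT2 only, and so had to be high there. Moxd1, Mup5, Ugt2b37 and Serpina3c are among them.

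**Figure D2:**
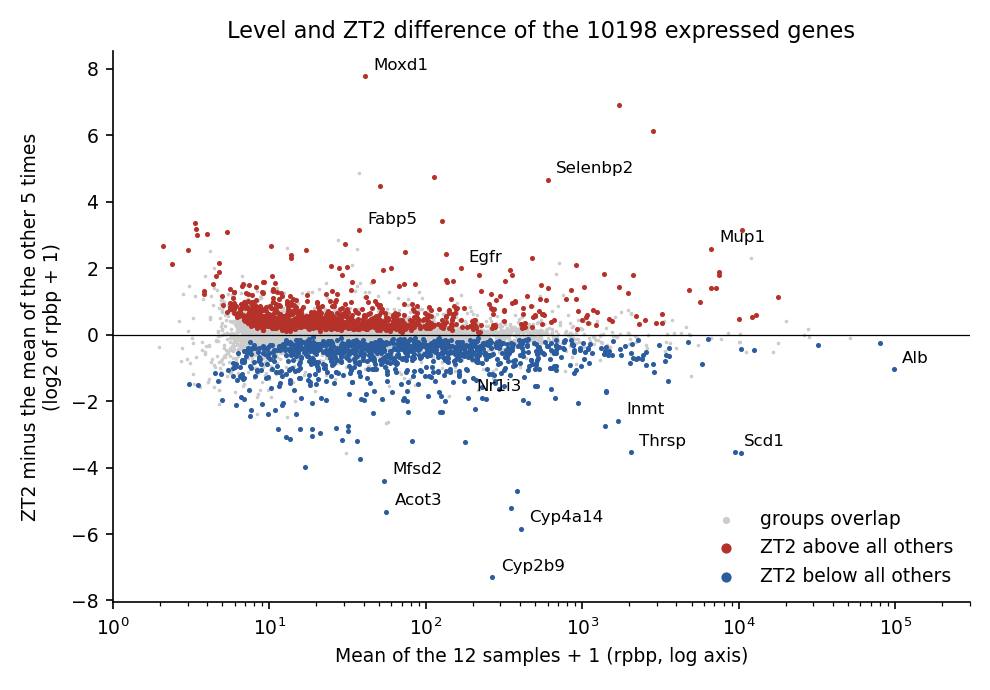
Mean level over the 12 samples (x axis, rpbp + 1, log axis) against the difference of ZT2 from the other 5 times (y axis, log2 of rpbp + 1) for the 10198 expressed genes, with members above in red, members below in blue and all other genes in grey. Moxd1 is the highest point and Cyp2b9 the lowest, and 41.2% of the blue points against 15.4% of the red lie at a level above 100 rpbp.

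The 2 series could be read separately. Of the 3019 genes whose highest value in series 1 was at ZT2, 1372 (45.4%) were also highest at ZT2 in series 2, where 22.2% of all genes were. Of the 2167 lowest at ZT2 in series 1, 1216 (56.1%) were lowest in series 2, where 19.4% of all genes were. ZT22, 4 hr earlier, was the nearest time and held the nearest other sample for 422 members above and 489 below, and its series 2 sample alone for 293 and 414. Against ZT22, limma called 85 genes higher (0.833%) and 169 lower (1.66%), 63 and 138 of them members. Against ZT6 it called 878 higher (8.61%) and 1135 lower (11.1%), 461 and 665 of them members. Both neighbours differed from ZT2 in 53 members above and 127 below.

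Moxd1, a homologue of the enzyme that turns dopamine into noradrenaline, was the member with the largest gap (chr10:23943323-24022596 in mm9, plus strand). It read 246 and 229 rpbp at ZT2, while the other 10 samples ran from 0 to 0.32 with a median of 0.06. The transcript was therefore near absent in every liver except the ZT2 pair. The difference was 7.79 ± 0.35 (SE) on the log2(rpbp + 1) scale (limma adjusted p = 5.21e-06), and against ZT22 alone it was 7.62 (adjusted p = 0.000219). Moxd1 passed the expression minimum through ZT2 only, so its size and its p are a description. Its promoter window is shown because of that gap. The sequence is RefSeq's on GRCm38.p6, from 250 bases before the start to 50 bases after it, and capitals mark a TTCNNNGAA match, the letters that STAT factors bind, 150 to 142 bases before the start.
Moxd1 promoter, chr10:24223267-24223566, plus strand: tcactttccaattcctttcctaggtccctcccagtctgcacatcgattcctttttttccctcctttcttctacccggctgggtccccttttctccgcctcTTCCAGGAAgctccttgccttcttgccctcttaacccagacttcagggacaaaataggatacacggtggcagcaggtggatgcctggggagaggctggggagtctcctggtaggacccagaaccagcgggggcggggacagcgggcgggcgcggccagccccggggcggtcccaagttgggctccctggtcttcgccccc

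Signalling genes followed among the members above. Egfr, the epidermal growth factor receptor (chr11:16652206-16818161, plus strand), read 404 and 400.5 rpbp against 37.1 to 209 (median 119.9). It was 2.01 ± 0.45 log2 higher (adjusted p = 0.0135) and more so against ZT6 (3.30, adjusted p = 0.0047) than against ZT22, where the difference of 1.4 missed the threshold (adjusted p = 0.234). Socs2, a feedback inhibitor of growth hormone signalling, read 28.6 and 46.6 rpbp against 2.04 to 18.5 (median 6.72), a difference of 2.31 ± 0.44 (adjusted p = 0.00672). Id3, which blocks basic helix-loop-helix factors from binding DNA, read 344 and 320.1 rpbp against 58.7 to 177 (median 113), and its relative Id2 read 426 and 383 against 148 to 310.2 (median 203). Both Id genes rose, by 1.62 ± 0.24 (adjusted p = 0.00219) and 0.92 ± 0.14 (adjusted p = 0.00252), and both also passed against ZT22 (adjusted p = 0.0294 and 0.0457). Onecut1, the hepatocyte factor HNF6, read 58.9 and 74.6 rpbp against 4.24 to 48.4 (median 14.6) and rose by 2.01 ± 0.35 (adjusted p = 0.0047). Cdh1, the epithelial adhesion protein E-cadherin, read 68.7 and 50.3 rpbp against 3.40 to 38.3 (median 13.4), with its next highest sample at ZT22 of series 2. Id2, Onecut1 and Cdh1 lie outside the naming rule and were picked after their values were seen.

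The acute phase list, of plasma proteins and regulators that the liver makes in inflammation, had 32 of 47 tested genes higher and 3 lower, with a median difference of 1.11 against 0.04 for all genes. Outside it, the terminal complement components, which assemble the pore of the membrane attack complex, were represented by Hc, C6, C8a, C8b and C9, whereas C8g was not separate. C6 read 488 and 509.7 rpbp against 63.8 to 312 (median 152), and C8b read 702 and 678 against 114 to 459 (median 245). Hc, which is complement component C5 in mouse, read 912 and 932 rpbp against 301 to 770.5 (median 433). The differences were 1.80 ± 0.26 (adjusted p = 0.00171) for C6, 1.61 ± 0.26 (adjusted p = 0.00318) for C8b and 1.07 ± 0.17 (adjusted p = 0.00296) for Hc. C9 was the most abundant of them at 2024 and 2079 rpbp against 430.2 to 1542 (median 795), a rise of 1.44 ± 0.20 (adjusted p = 0.00157). Of 25 tested genes with complement symbols, 17 were called higher and 0 lower, 14 were above all others and 1, Mbl2, was below. C4b, 1 of the 17, is on the acute phase list as well. That group includes the C1q genes of macrophages, and it was drawn up, like the other symbol families here, after values were seen.

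Serpins, which inhibit proteases or carry hormones, gave 11 higher and 3 lower of 27 tested, or 8 and 3 of 23 without those on the acute phase list. The lower ones were Serpina6, which carries corticosteroids in plasma, Serpinf1 and Serpinb1a. Serpina4-ps1 (chr12:105318859-105324934, plus strand), annotated as a pseudogene, read 327 and 412 rpbp against 13.1 to 153 (median 92.7). It rose by 2.43 ± 0.20 (adjusted p = 0.000134) and exceeded ZT6 by 4.62. The major urinary proteins, small pheromone carriers that male mice excrete in large amounts, had 3 of 4 tested entries above all others, 1 of which, Mup5, passed the expression minimum through ZT2 only. Mup1 read 18426 and 17862 rpbp against 535 to 10108 (median 4329), and Mup2 read 3693 and 3351 against 658 to 1933 (median 1461). Mup2 was 1.45 ± 0.13 higher (adjusted p = 0.000203), and Mup1, whose other samples spread widely, 2.58 ± 0.75 (adjusted p = 0.0382). OTTMUSG00000007485, which the annotation used here does not place, was among the strongest signals of the table at 32310 and 39622 rpbp against 1380 to 16596 (median 3674). The study used uniquely mapped reads only. Reads that fit near-identical copies alike in the Mup and Serpina clusters are left out, so these values are uncertain as levels of single genes.

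The machinery that makes and exports proteins moved by smaller steps. Of 63 tested genes of the secretion machinery, 16 were higher and 3 lower (median 0.18). Sec61g, part of the channel into the endoplasmic reticulum (ER), read 226 and 192 rpbp against 111 to 159.6 (median 138), and Ssr4, a subunit of the complex beside that channel, read 204 and 191 against 114 to 166 (median 133). They rose by 0.61 ± 0.11 (adjusted p = 0.00594) and 0.52 ± 0.091 (adjusted p = 0.00479). Among 20 cytosolic aminoacyl-tRNA synthetases, which load amino acids onto tRNA, 9 were higher and 0 lower (median 0.26). Of 58 ribosome biogenesis genes, 15 were higher and 0 lower (median 0.18), among them Rrn3, the initiation factor of RNA polymerase I, which read 25.0 and 35.1 rpbp against 13.4 to 20.9 (median 17.7; 0.73 ± 0.13, adjusted p = 0.00509). Ribosomal protein genes themselves gave 1 higher and 0 lower of 75 tested, and translation factors 3 and 0 of 42, shares below the background of 9.96%. Proteasome subunits gave 5 and 0 of 36, with 8 above all others (22.2%) against 10.4% of all genes.

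The unfolded protein response, by which the ER matches chaperones to its load, had 9 of 32 tested genes higher and 1 lower (median 0.26). Its members were Xbp1, Derl3 and Ern1 above and Herpud1 below, 12.5% of the list against 19.9% of all genes. Xbp1, a transcription factor of the response (chr11:5420662-5425896, plus strand), read 655 and 612 rpbp against 256 to 415 (median 309.6), 1.00 ± 0.14 higher (adjusted p = 0.00164). Derl3, which helps move misfolded proteins out of the ER (chr10:75356143-75358686, plus strand), read 40.2 and 21.1 rpbp against 1.04 to 14.2 (median 3.18), 2.66 ± 0.58 higher (adjusted p = 0.0125). Its ZT2 values lay apart from each other but clear of the rest. Herpud1, of the same disposal pathway, went the other way at 216 and 215 rpbp against 227 to 617 (median 401; -0.80 ± 0.14, adjusted p = 0.00485). Hspa5, the main ER chaperone BiP, overlapped the other samples at 1158 and 1457 rpbp against 649 to 2070 (0.36, adjusted p = 0.226). The Derl3 window is shown because it was the only one of 772 windows of members above that held the ER stress element, CCAAT and CCACG with any 9 bases between them, which 0.12% of all 32851 windows and 0.18% of those of expressed genes that were not separate held. Capitals mark a CACGTG 168 to 163 bases before the start and, on the reverse strand, the element at 156 to 138 bases.
Derl3 promoter, chr10:75893148-75893447, plus strand: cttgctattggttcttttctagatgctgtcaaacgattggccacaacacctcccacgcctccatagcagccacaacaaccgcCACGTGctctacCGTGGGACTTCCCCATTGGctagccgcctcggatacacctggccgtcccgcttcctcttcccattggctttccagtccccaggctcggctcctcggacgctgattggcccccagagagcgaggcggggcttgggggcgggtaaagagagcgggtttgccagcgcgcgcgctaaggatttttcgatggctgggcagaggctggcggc

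Interferon-stimulated genes, the antiviral programme that type I and type II interferons switch on, supplied members on the upper side only. Of 28 tested, 12 were higher and 0 lower, 10 were above all others, and the median was 0.52. Isg15, a ubiquitin-like protein (chr4:155573533-155574927, minus strand), read 61.6 and 66.0 rpbp against 14.3 to 49.8 (median 23.6), 1.35 ± 0.27 higher (adjusted p = 0.00885). Usp18, which removes it from proteins, read 20.5 and 18 rpbp against 3.60 to 14.5 (median 6.18), 1.36 ± 0.18 higher (adjusted p = 0.00109). Ifit1, which binds viral RNA, read 22 and 21.9 rpbp against 7.64 to 19.2 (median 11.6), and Rsad2, the antiviral protein viperin, 10.7 and 13.7 against 3.92 to 8.32 (median 6.22). They rose by 0.90 ± 0.14 (adjusted p = 0.00241) and 0.91 ± 0.18 (adjusted p = 0.00865). Zbp1, a sensor of nucleic acids, went with them (18.5 and 19.6 rpbp against 3.24 to 9.12, median 5.98) and rose by 1.57 ± 0.26 (adjusted p = 0.00398). Ifi47, an interferon-inducible GTPase, was stronger at 148 and 120.2 rpbp against 19.4 to 68.7 (median 34.6) and rose by 1.94 ± 0.26 (adjusted p = 0.00127).

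Promoter windows of Isg15, Ifit1 and Rsad2 are printed because they hold GAAA, any 2 bases and GAAA again (either strand, in capitals), the letters shared by interferon response elements. Isg15 has 3 overlapping matches 78 to 57 bases before the start, Ifit1 has 2, at 104 to 95 and 85 to 76 bases, and Rsad2 has 1, at 120 to 111 bases. Among all windows 3.44% held the motif, against 3.76% of windows of members above and 2.45% of those below. Of the windows of expressed genes that were not separate, 2.89% held it.
Isg15 promoter, chr4:156200769-156201068, minus strand: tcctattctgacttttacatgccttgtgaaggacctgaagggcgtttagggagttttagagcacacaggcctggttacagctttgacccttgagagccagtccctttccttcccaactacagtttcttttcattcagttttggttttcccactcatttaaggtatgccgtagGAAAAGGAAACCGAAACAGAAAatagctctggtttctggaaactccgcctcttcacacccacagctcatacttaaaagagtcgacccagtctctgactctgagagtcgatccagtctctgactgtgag
Ifit1 promoter, chr19:34640639-34640938, plus strand: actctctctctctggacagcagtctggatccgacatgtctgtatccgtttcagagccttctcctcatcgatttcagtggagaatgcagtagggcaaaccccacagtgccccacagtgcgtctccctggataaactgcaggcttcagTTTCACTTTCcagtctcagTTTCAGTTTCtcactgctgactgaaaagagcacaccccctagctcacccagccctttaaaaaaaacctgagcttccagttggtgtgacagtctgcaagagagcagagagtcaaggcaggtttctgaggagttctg
Rsad2 promoter, chr12:26456403-26456702, minus strand: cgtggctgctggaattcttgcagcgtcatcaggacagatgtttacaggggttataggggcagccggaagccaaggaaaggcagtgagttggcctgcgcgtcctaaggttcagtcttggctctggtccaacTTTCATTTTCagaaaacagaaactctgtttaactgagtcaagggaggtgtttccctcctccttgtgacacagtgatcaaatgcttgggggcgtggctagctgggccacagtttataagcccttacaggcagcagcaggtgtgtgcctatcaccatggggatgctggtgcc

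Markers of Kupffer cells, the resident macrophages of the liver, moved in the same samples. Of 11 tested 7 were higher and 0 lower, and 9 were above all others. Clec4f, a lectin that marks these cells, read 199 and 197 rpbp against 104 to 149 (median 129; 0.64 ± 0.14, adjusted p = 0.0131). Summed over 12 markers, none of them at 0, the signal was 1047 and 1081 rpbp at ZT2 and 559 to 838 elsewhere (median 671). Their part in the rise of the interferon and complement genes was not tested. In whole liver, more cells of a type and more RNA per cell cannot be told apart. Markers of sinusoidal endothelial cells summed to 335 and 320.1 rpbp at ZT2 and 287 to 343 elsewhere, and those of stellate cells to 353 and 412 against 389 to 466, so both overlapped. Lymphocyte markers (14.1 and 12.5 rpbp against 5.3 to 13.8) never passed 8 rpbp in any of their 12 genes, and 9 of 11 neutrophil markers did not either. The 8 hepatocyte markers summed to 115602 and 115890 rpbp against 139785 to 182890, with Alb as the largest part, which read 50445 and 53126 rpbp against 93174 to 122523 and fell by 1.04 ± 0.10 on the log2 scale (adjusted p = 0.00028). Of these 8 markers, 5 were above all others, among them Trf, Ahsg, Apoa1 and Apob, and 2, among them Alb, were below. The fit called 4 higher and 2 lower.

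Enzymes that act on steroids, drugs and lipids were also among the members above. Selenbp2 (chr3:94497478-94508335, plus strand), a selenium-binding protein, read 2708 and 1531 rpbp against 7.56 to 1179 (median 62.0). The highest of the others was ZT22 of series 2, and the difference was 4.67 ± 1.13 (adjusted p = 0.0193). It overlaps Cgn on the other strand, which the libraries do not separate. Cyp7b1, the oxysterol hydroxylase of the alternative bile acid pathway (chr3:17971950-18143338, minus strand), read 1400 and 1122 rpbp against 89.2 to 639 (median 337), 2.29 ± 0.42 higher (adjusted p = 0.00618). Hsd3b5, a steroid-reducing enzyme of male liver, read 837 and 737 rpbp against 35.2 to 538 (median 233), 1.94 ± 0.56 higher (adjusted p = 0.0384). Gstp1, a glutathione transferase, read 3453 and 3030 rpbp against 462 to 1730 (median 953), 1.82 ± 0.22 higher (adjusted p = 0.000695). Nudt7, which splits coenzyme A in peroxisomes, read 1212 and 1233 rpbp against 334 to 679 (median 433), 1.39 ± 0.22 higher (adjusted p = 0.00281). Ugt2b38, which adds glucuronic acid to its substrates, had 62.1 and 76.4 rpbp against 12.0 to 27.3 (median 20.0) and rose by 1.80 ± 0.22 (adjusted p = 0.000822). Adh6-ps1, an entry of the alcohol dehydrogenase family, had 111 and 73.2 against 5.20 to 43.6 (median 12.4) and rose by 2.71 ± 0.49 (adjusted p = 0.00564).

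Fabp5, a fatty acid carrier more usual in skin and macrophages, read 154 and 121 rpbp against 6.92 to 30.8 (median 13.4), 3.15 ± 0.46 higher (adjusted p = 0.00217). Lpl, lipoprotein lipase, which adult hepatocytes express little of, read 21.6 and 23.3 rpbp against 3.32 to 10.8 (median 7.34), 1.55 ± 0.22 higher (adjusted p = 0.0017). Both also exceeded ZT6, by 2.60 (adjusted p = 0.0149) and 1.13 (adjusted p = 0.0215). Against ZT22, Fabp5 was 2.94 higher (adjusted p = 0.0395), while Lpl differed by 1.21 (adjusted p = 0.0598). Ang, the ribonuclease angiogenin, read 1231 and 1084 rpbp against 233 to 564 (median 442; 1.5 ± 0.27, adjusted p = 0.00509), and Rnase4, which lies over the same locus and shares reads with it, 3793 and 3557 against 804 to 2727 (median 1431; 1.25 ± 0.30, adjusted p = 0.0178). Hopx, a homeodomain protein that does not bind DNA, read 158 and 152 rpbp against 34.9 to 75.8 (median 54.2; 1.52 ± 0.15, adjusted p = 0.000272), and the entry Ob1 is the same locus. Scara5, a ferritin receptor, had 47.2 and 44.0 rpbp against 0.52 to 31.5 (median 7.76) and rose by 2.54 ± 0.41 (adjusted p = 0.00329). Gja10, a gap junction protein, had 26.6 and 27.2 against 0.24 to 21.2 (median 8.60), and rose by 2.40 ± 0.69 (adjusted p = 0.0365). Its other samples were split, with 16.6 to 21.2 rpbp at ZT6, ZT14 and ZT18 of series 1 and 0.24 to 0.56 in the rest. Against ZT6 alone, Gja10 differed by 0.57 (adjusted p = 0.697). Abcb11, the bile salt export pump, read 482 and 458 rpbp against 206 to 385 (median 286; 0.75 ± 0.085, adjusted p = 0.000558). A further pair was picked after its values were seen. Slc22a7, an organic anion transporter, had 90.6 and 109 rpbp against 15.1 to 52.7 (median 33.0), and Dio1, which activates thyroid hormone, 425 and 536 against 128 to 326 (median 247).

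**Figure D3:**
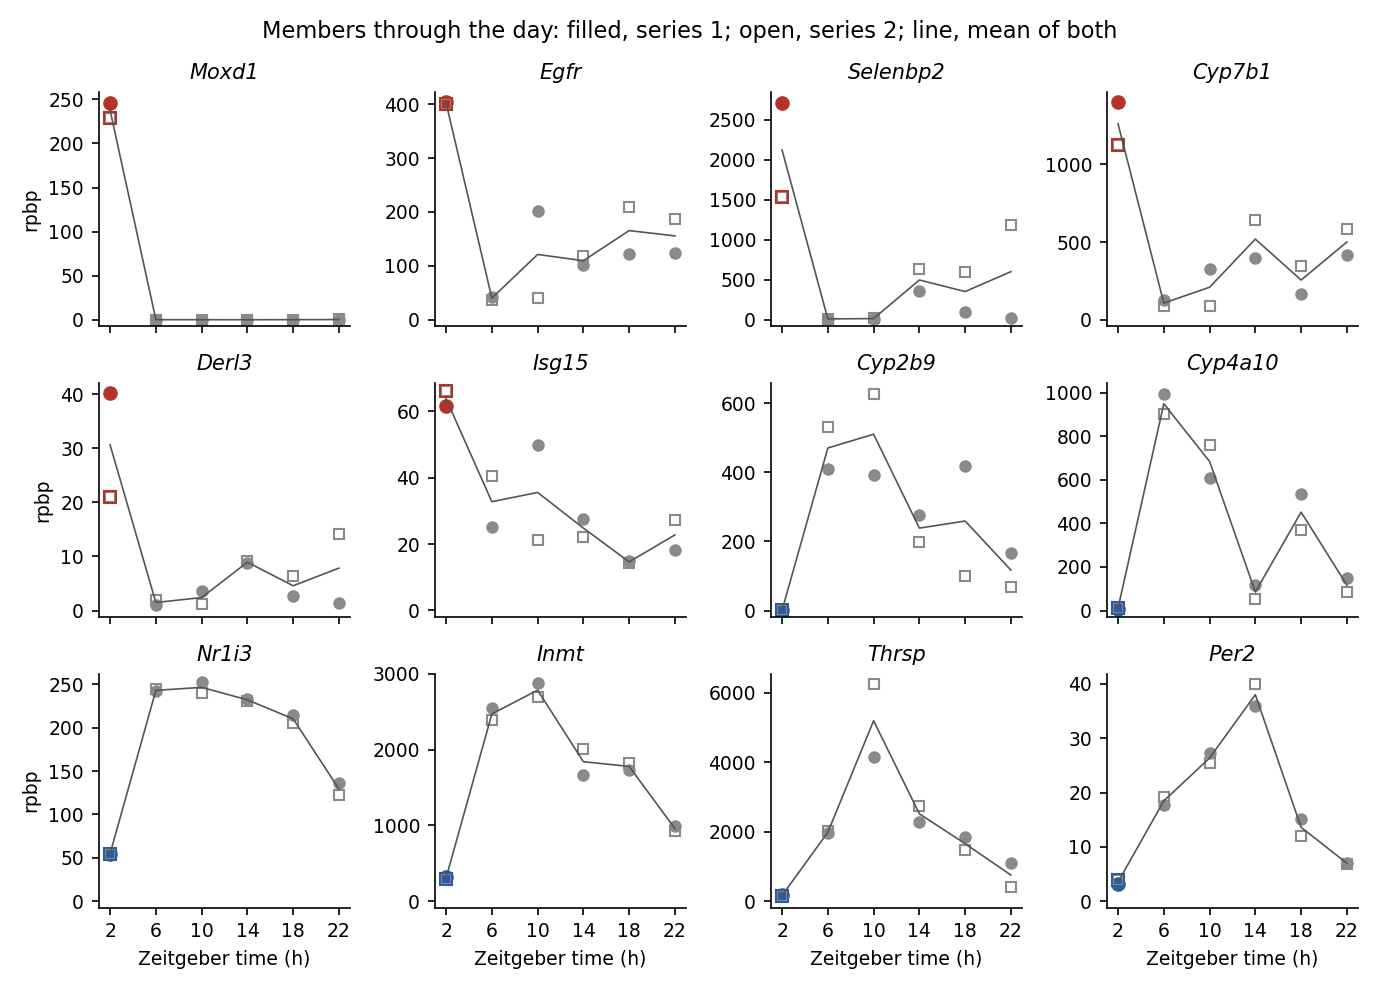
Signal (y axes, rpbp) of 12 members by zeitgeber time (x axes, hr), series 1 with filled and series 2 with open symbols, with the ZT2 points larger and in red for members above and in blue for members below. In each of the 12 panels both ZT2 points lie beyond all 10 other points, and the pairs at one time lie further apart in some panels (Selenbp2, Derl3) than in others (Nr1i3, Inmt).

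Cytochrome P450 genes gave the largest differences below. Of 46 tested genes of this list, which includes their regulators CAR and PXR, 23 were lower and 2 higher, 21 were below and 3 above all others, and the median was -0.50. Cyp2b9 (chr7:26958430-26995680, plus strand) read 0.48 and 0.84 rpbp against 67.1 to 627 (median 335), so it was near absent at ZT2 and abundant in all other livers. Its difference was -7.30 ± 0.46 (adjusted p = 3.13e-05), and against ZT22 alone -6.02 (adjusted p = 0.00421). The neighbouring Cyp2b13 was listed at 0 in both ZT2 samples and at 3.36 to 33.6 rpbp (median 22) elsewhere (adjusted p = 0.00381). Cyp2c38 read 1.00 and 2.92 rpbp against 10.8 to 92.4 (median 36.0), -3.75 ± 0.52 (adjusted p = 0.00156), and Cyp2a5, a coumarin hydroxylase, 209 and 176 against 378 to 4365 (median 1395; -2.74 ± 0.30, adjusted p = 0.000497). Members of these clusters are near-identical, and reads that fit more than 1 of them are not counted, so single genes are uncertain.
The windows of Cyp2b9 and of Nr1i3 (below) are shown for the gene that fell furthest and for a receptor known to act on P450 genes. Cyp2b9 held none of the 5 motifs searched.
Cyp2b9 promoter, chr7:26173159-26173458, plus strand: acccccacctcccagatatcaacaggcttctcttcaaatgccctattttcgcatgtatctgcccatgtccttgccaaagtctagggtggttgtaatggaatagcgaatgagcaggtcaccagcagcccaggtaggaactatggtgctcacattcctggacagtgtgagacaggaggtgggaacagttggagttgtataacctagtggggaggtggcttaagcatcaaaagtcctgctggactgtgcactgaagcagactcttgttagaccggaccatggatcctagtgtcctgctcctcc

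Among receptors that act on P450 genes, Nr1i3, Nr1i2 and Ppara were members, and Ahr, the aryl hydrocarbon receptor, was not: it overlapped at 19.4 and 21.0 rpbp against 20.8 to 41.6 (-0.49, adjusted p = 0.0333). Nr1i3, the receptor CAR (chr1:173144101-173150832, plus strand), read 55.0 and 54.8 rpbp against 122 to 252 (median 232), a difference of -1.89 ± 0.065 (adjusted p = 6.06e-07). This was, with Inmt, the smallest adjusted p of all genes, and ZT22 differed from ZT2 as well (-1.22, adjusted p = 0.000272). Tomm40l, on the other strand of the same locus, read 40.4 and 38.8 rpbp against 79.2 to 173 (median 141), and these libraries cannot separate the pair. Nr1i2, the receptor PXR, read 52.1 and 49.0 rpbp against 69.8 to 112 (median 81.7), -0.75 ± 0.073 (adjusted p = 0.000272). Ppara, the receptor for fatty acids, read 74.8 and 72.6 rpbp against 105 to 229 (median 145), -1.03 ± 0.098 (adjusted p = 0.000262). Prlr, the prolactin receptor, had 17.6 and 15.6 rpbp against 35.4 to 59.6 (median 47.0). Its log2 difference was -1.46 ± 0.14 (adjusted p = 0.000272), and it was picked after its values were seen. In the Nr1i3 window the capitals mark CACGTG, the E-box letters that CLOCK:BMAL1 can bind, 244 to 239 bases before the start.
Nr1i3 promoter, chr1:171213720-171214019, plus strand: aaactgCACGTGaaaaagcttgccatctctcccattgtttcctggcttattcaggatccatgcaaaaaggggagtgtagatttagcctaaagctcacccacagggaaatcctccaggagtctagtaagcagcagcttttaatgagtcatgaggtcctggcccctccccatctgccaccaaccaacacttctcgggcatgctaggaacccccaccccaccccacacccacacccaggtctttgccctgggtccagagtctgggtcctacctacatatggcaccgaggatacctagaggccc

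Other enzymes that modify drugs and small molecules followed. Inmt, a methyltransferase for indoles and amines (chr6:55120620-55125037, minus strand), read 322 and 293 rpbp against 931 to 2874 (median 1919), -2.59 ± 0.086 (adjusted p = 6.06e-07). Rdh16, a retinol dehydrogenase, read 18.8 and 19.2 rpbp against 82.6 to 373 (median 181), -3.24 ± 0.26 (adjusted p = 0.000134). Of 13 aldehyde dehydrogenases tested, 10 were lower and 0 higher (median -0.41), with Aldh1a1 at 1396 and 1491 rpbp against 2267 to 3936 (median 3209) and Aldh3a2 at 99.8 and 122 against 193 to 939.5 (median 419). Glutathione S-transferases gave 12 lower and 2 higher of 20 (median -0.55), the higher ones being Gstp1 and its neighbour Gstp2. Gstt3, among the lower ones, read 37.5 and 27.8 rpbp against 53.4 to 243 (median 152; -1.99 ± 0.18, adjusted p = 0.000213). UDP-glucuronosyltransferases gave 10 lower and 4 higher of 18: the Ugt1a, Ugt2a3 and Ugt3a entries that were members lay below, and those of Ugt2b lay above. Ugt1a1, which conjugates bilirubin, read 456 and 477 rpbp against 673 to 1241 (median 1022; -1.07 ± 0.098, adjusted p = 0.000241), and because Ugt1a entries share exons they are not separate measurements. The NRF2 list of antioxidant genes had 9 lower and 2 higher of 31 (median -0.29).

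Of 163 tested solute carriers, 33 were lower and 19 higher (median -0.05), where 10.3% and 9.96% of all genes were, and 32 were below all others and 13 above, where 9.58% and 10.4% were. Mfsd2, the lysophospholipid carrier now named Mfsd2a, read 0.76 and 2.12 rpbp against 10.3 to 193 (median 57.3), -4.39 ± 0.59 (adjusted p = 0.00134). Slc16a5, of the monocarboxylate transporter family, read 0.52 and 0.56 rpbp against 4.36 to 29.5 (median 11.1), -3.09 ± 0.33 (adjusted p = 0.000409). Slco1a4, which takes up organic anions and bile salts, read 8.52 and 9.08 rpbp against 23.5 to 76.0 (median 54.1), -2.37 ± 0.17 (adjusted p = 6.37e-05). All 3 had a gap of at least 2-fold to the nearest other sample. Slc17a8, a vesicular glutamate transporter, had 3.00 and 3.88 rpbp against 14.4 to 76.3 (median 29.1; adjusted p = 0.00524), and Dsg1c, a desmosomal cadherin, 1.24 and 1.84 against 8.04 to 18.2 (median 10.4; adjusted p = 0.000328).

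Genes for burning fatty acids, many of them PPARalpha targets, were low at ZT2 as a group: 30 of 42 tested were lower and 0 higher, 29 were below all others, and the median was -0.65. The omega-hydroxylases of the Cyp4a cluster on chromosome 4 were among those that fell furthest. Cyp4a10 (chr4:115190869-115206254, plus strand) read 9.08 and 12.8 rpbp against 55.2 to 996 (median 452), and Cyp4a31 read 4.40 and 9.08 against 46.1 to 897 (median 407). Their differences were -4.69 ± 0.28 (adjusted p = 2.37e-05) and -5.21 ± 0.33 (adjusted p = 2.88e-05), and both also fell relative to ZT22 (adjusted p = 0.00421 for each). Cyp4a14 had the widest range, with 1.64 and 1.72 rpbp against 5.60 to 1430 (median 168; -5.84 ± 0.69, adjusted p = 0.000683). Acyl-CoA thioesterases, which release free fatty acids from coenzyme A, fell as well. Acot3 was listed at 0 in both ZT2 samples and at 1.52 to 192 rpbp (median 47.9) elsewhere (-5.33 ± 0.59, adjusted p = 0.000502). Acot4 read 7.72 and 9.08 rpbp against 31.7 to 185 (median 90.0; -3.21 ± 0.27, adjusted p = 0.000155). Ehhadh, of peroxisomal beta-oxidation, fell less, with 170.1 and 196 rpbp against 265 to 767 (median 405; -1.26 ± 0.16, adjusted p = 0.00102).

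Genes for making fatty acids were low in the same samples, 17 of 20 lower and 1 higher, with 17 below all others and a median of -1.20. Scd1, which puts the first double bond into fatty acids (chr19:44468941-44482199, minus strand), read 647 and 762 rpbp against 1506 to 27154 (median 9089), -3.54 ± 0.35 (adjusted p = 0.000286). The entry BC114417, not placed by the annotation used here, ran beside it with 664 and 868 rpbp against 1738 to 29262 (median 9861). Thrsp, a nuclear protein that promotes lipogenesis (chr7:104561448-104566240, minus strand), read 174 and 162 rpbp against 412 to 6240 (median 1983), -3.52 ± 0.29 (adjusted p = 0.000134). Fasn, fatty acid synthase, read 43.1 and 45.6 rpbp against 102 to 462 (median 208; -2.25 ± 0.36, adjusted p = 0.00334), and Elovl6, which lengthens its product, 23.9 and 21.6 against 44.3 to 395 (median 140.3; -2.34 ± 0.42, adjusted p = 0.00512). Scd1 and Thrsp also passed against ZT22 (adjusted p = 0.00886 and 0.0311), whereas Fasn (0.0587) and Elovl6 (0.125) did not.

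**Figure D4:**
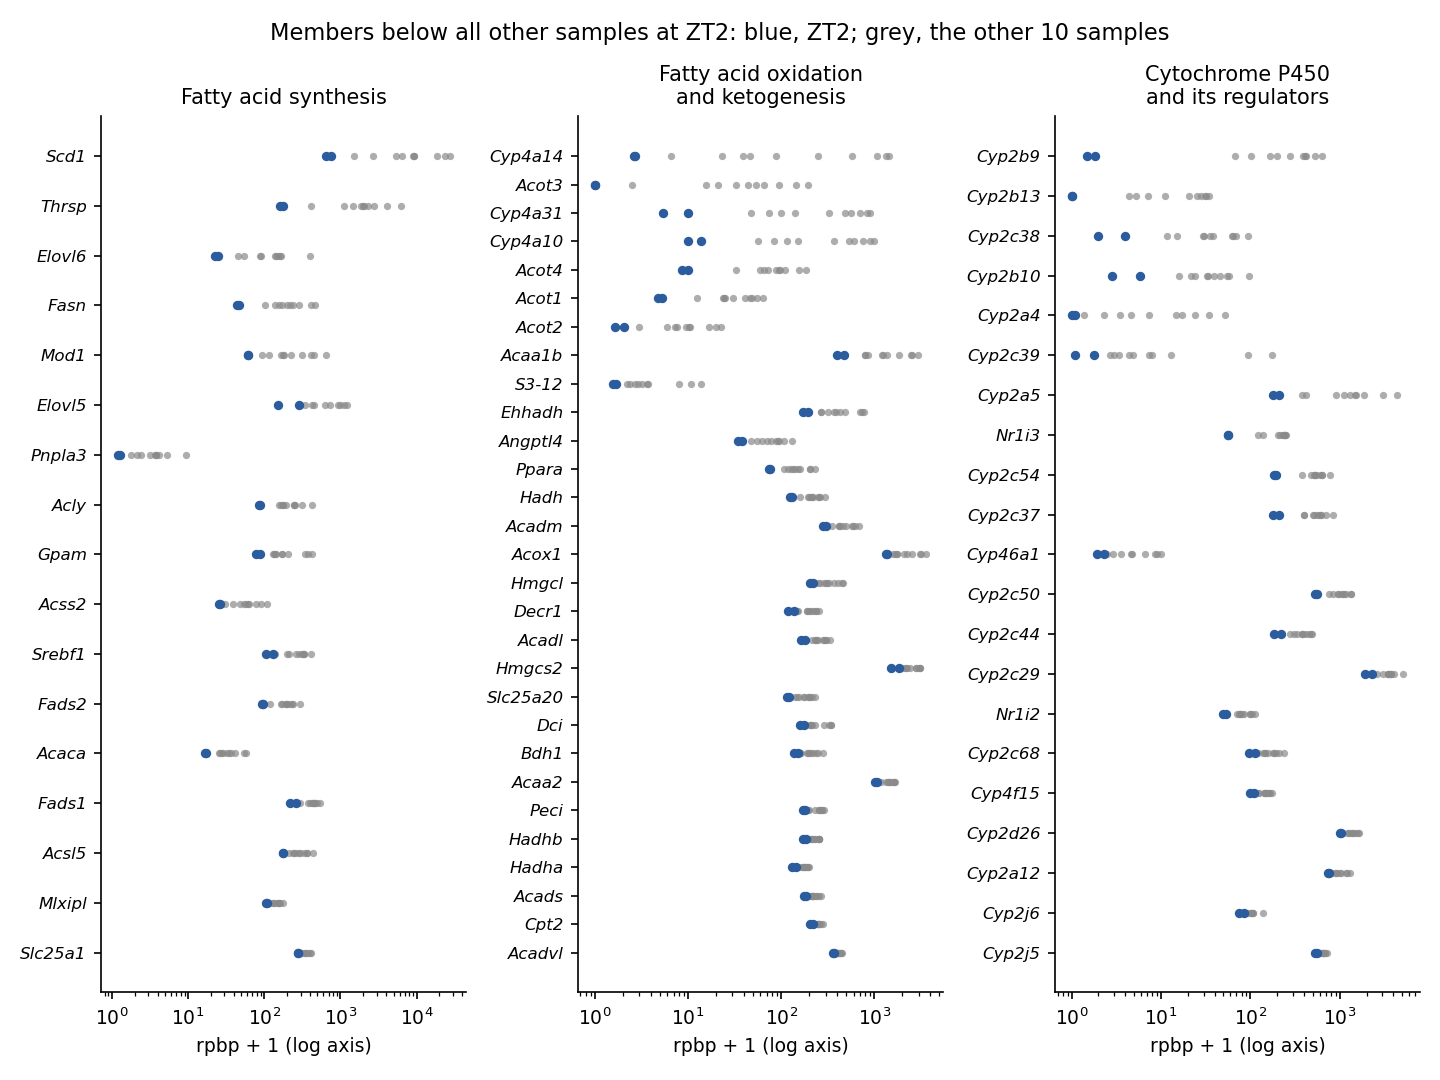
Signal of each member below on the lists for fatty acid synthesis, fatty acid oxidation and P450 genes with their regulators (x axes, rpbp + 1, log axis), with 1 gene per line, the ZT2 samples in blue and the other 10 in grey. The blue points lie left of all grey points in each line, by the widest margin for Cyp2b9 and by little for genes such as Slc25a1.

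Cholesterol, bile acid and sugar genes moved less. Cholesterol synthesis and uptake had 11 of 26 lower and 0 higher (median -0.47). Bile acid genes went both ways, 4 higher and 5 lower of 18. Akr1d1, the steroid reductase of that pathway, read 111 and 97.6 rpbp against 229 to 380.0 (median 337), -1.64 ± 0.11 (adjusted p = 5.88e-05). Glucose uptake and glycolysis had 9 of 19 lower and 0 higher (median -0.32). Slc2a2, the glucose transporter GLUT2, read 129 and 104 rpbp against 215 to 481 (median 353), -1.55 ± 0.16 (adjusted p = 0.000402), and Pklr, the liver pyruvate kinase, 115 and 115 against 224 to 806 (median 479; -1.96 ± 0.35, adjusted p = 0.0054). Glycogen genes had 6 of 13 lower and gluconeogenesis genes 6 of 16 lower, with none higher in either. Gys2, the liver glycogen synthase, read 73.2 and 84.9 rpbp against 106 to 279 (median 181; -1.11 ± 0.17, adjusted p = 0.00242).

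Amino acid catabolism and the urea cycle had 17 of 45 lower and 3 higher (median -0.19). Mat1a, which makes S-adenosylmethionine, read 1492 and 1477 rpbp against 3084 to 4622 (median 3837), -1.41 ± 0.10 (adjusted p = 6.53e-05), and Asl of the urea cycle 270.4 and 272 against 378 to 743 (median 599.7; -1.05 ± 0.090, adjusted p = 0.000177). The respiratory chain moved by little but often in 1 direction, with 16 of 71 lower, 1 higher and 23 below all others (median -0.17). Sdha, of complex II, is an example with 427 and 424 rpbp against 464 to 621 (median 534; -0.36 ± 0.077, adjusted p = 0.0118). Autophagy genes gave 7 higher and 2 lower of 43, where 9.96% and 10.3% of all genes were. Of this list 20.9% lay above or below all others, near the 19.9% of all genes. Wipi1, a phagophore protein, was above with 18.8 and 19.4 rpbp against 9.04 to 13.2 (median 10.4; 0.77 ± 0.087, adjusted p = 0.000555) and Bnip3, a receptor for mitophagy, was below with 123 and 106 against 177 to 402 (median 329.9; -1.38 ± 0.12, adjusted p = 0.000222).

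The clock itself supplied members on the lower side only. Of 16 core clock genes tested, 8 were lower and 3 higher, and 7 were below and 0 above all others (median -0.41). Per2, a repressor of the loop (chr1:93312561-93355907, minus strand), read 3.24 and 3.88 rpbp against 6.88 to 40.04 (median 18.5), -2.05 ± 0.10 (adjusted p = 7.15e-06). Per3 read 0.28 and 0.48 rpbp against 1.08 to 23.5 (median 14.4; -2.83 ± 0.15, adjusted p = 9.15e-06), and Per1 0.68 and 0.72 against 1.44 to 13.8 (median 5.30; -1.89 ± 0.24, adjusted p = 0.000973). Only Per2 of the 3 also passed against ZT22 (adjusted p = 0.0183, 0.111 for Per3 and 0.308 for Per1). Arntl and Nr1d1 were called higher but overlapped the other samples, at 23.6 and 22.2 rpbp against 1.12 to 29.4 and at 46.0 and 42.5 rpbp against 3.8 to 142.

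Among 17 clock output genes, 12 were lower and 1 higher (median -1.34), but Dbp, the best known, was not a member: it read 1.96 and 3.8 rpbp against 1.48 to 241. Its relatives Tef and Hlf, which bind the same D-box, were. Tef read 16.7 and 18.7 rpbp against 23.6 to 142 (median 90.3), -2.00 ± 0.095 (adjusted p = 5.21e-06), and Hlf 25.0 and 23.2 against 33.9 to 50.3 (median 42.4; -0.76 ± 0.075, adjusted p = 0.00028). Wee1, the kinase that holds back mitosis, read 1.80 and 1.64 rpbp against 2.80 to 26.1 (median 18.6; -2.38 ± 0.13, adjusted p = 1.43e-05). The windows of Per3 and Tef are shown for the motifs of their known regulators. Capitals mark TTATGTAA, a D-box, at 205 to 198 and 158 to 151 bases before the start of Per3, and CACGTG at 127 to 122 bases before 1 of the 2 starts of Tef. Over all windows CACGTG was held by 7.15%, by 10.23% of those of members above, by 10.3% of those below and by 10.48% of those of expressed genes that were not separate. TTATGTAA was held by 0.94% of all windows, 0.78% above, 1.03% below and 0.53% of those not separate. TTCNNNGAA was held by 8.30%, 7.64%, 5.53% and 6.42% of the same sets. Windows were matched for 1211 of the 2033 members, and each motif was read on both strands.
Per3 promoter, chr4:151044616-151044915, minus strand: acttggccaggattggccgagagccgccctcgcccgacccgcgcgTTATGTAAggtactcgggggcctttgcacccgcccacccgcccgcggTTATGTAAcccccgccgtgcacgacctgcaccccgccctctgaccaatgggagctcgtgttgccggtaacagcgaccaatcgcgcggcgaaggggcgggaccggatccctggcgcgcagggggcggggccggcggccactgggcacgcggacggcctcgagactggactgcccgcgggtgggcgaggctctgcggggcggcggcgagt
Tef promoter, chr15:81802423-81802722, plus strand: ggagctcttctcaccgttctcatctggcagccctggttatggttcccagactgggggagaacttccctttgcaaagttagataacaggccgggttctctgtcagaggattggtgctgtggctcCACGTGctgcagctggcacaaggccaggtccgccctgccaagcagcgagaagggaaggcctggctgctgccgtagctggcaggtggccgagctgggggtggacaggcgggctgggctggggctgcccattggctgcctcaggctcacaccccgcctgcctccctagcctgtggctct

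Many genes at both ends of the ZT2 comparison are known to differ between male and female liver. After the values were seen, lists of 30 male-biased and 36 female-biased liver genes were drawn up, and they are given as a description only. The deposited table held 28 and 32 of them, and 28 and 20 passed the expression minimum. Of the male-biased genes left, such as Mup1, Moxd1, Cyp7b1, Hsd3b5 and Selenbp2, 19 were higher and 1 lower, and 18 were above all others (median 1.44). Moxd1 passed the expression minimum through ZT2 only and so had to be high there. Of the female-biased genes left, such as Cyp2b9, Cyp2b13, Cyp2a4, Acot3 and Prlr, 15 were lower and 0 higher, and 15 were below all others and 0 above (median -2.81). Genes of the Y chromosome were present in every library, Ddx3y at 57.2 to 71.6 rpbp and Eif2s3y at 59.2 to 80.5 rpbp, and none of the 4 tested was called or separate. The whole table gives 9.96% higher and 10.3% lower.

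**Figure D5:**
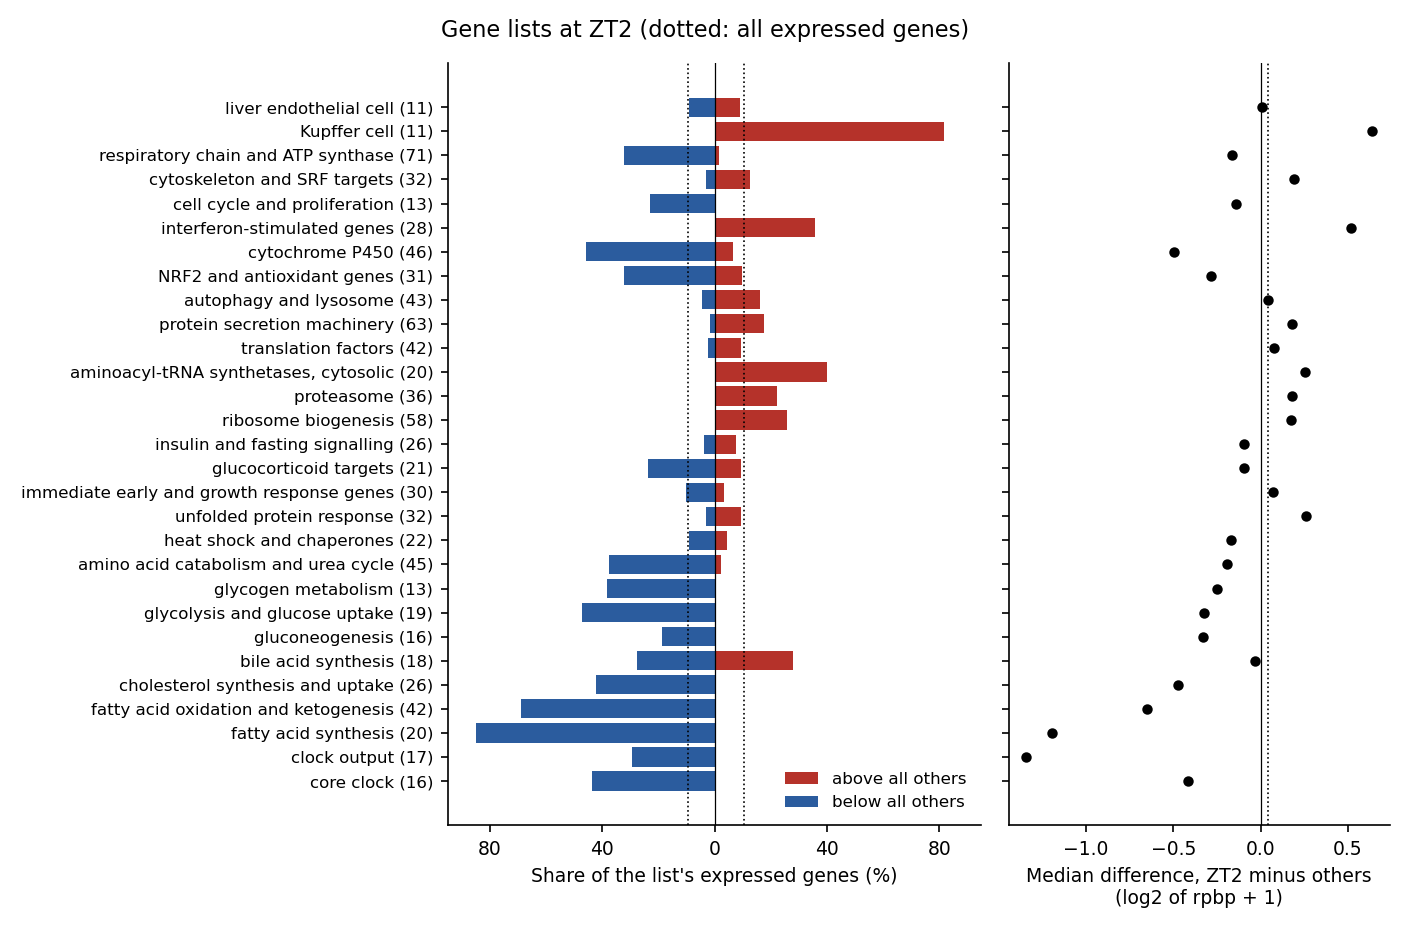
Left, the share of each list's expressed genes (x axis, %) above all other samples at ZT2 (red, to the right) or below them (blue, to the left); right, the list's median difference (x axis, log2 of rpbp + 1). The number tested stands after each name, and dotted lines give the values over all expressed genes (10.4% above, 9.58% below, median 0.04). Lists drawn up after values were seen, the acute phase list and lists with fewer than 10 genes tested are not drawn. Of those drawn, fatty acid synthesis and oxidation have the largest shares below, and Kupffer cell markers have the largest share above.

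Heat shock genes had 2 higher and 3 lower of 22, immediate early genes 1 and 5 of 30, and genes of insulin and fasting signalling 2 and 3 of 26. Over all genes tested, 9.96% were higher and 10.3% lower. Glucocorticoid targets had 4 higher and 6 lower of 21, with 2 above all others and 5 below (33.3% in all, against 19.9% of all genes). Members on any of the lists numbered 127 above and 182 below, so 929 and 795 members belonged to none of them.

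With 2 samples at ZT2, the calls rest on both. Without ZT2 of series 1, limma called 147 genes higher and 346 lower, and without ZT2 of series 2 it called 276 and 381. Of 92 genes described above with values, 25 lost their call without the first (adjusted p = 0.0501 to 0.219) and 20 without the second (0.0508 to 0.179), 15 of them without either. Those 15 were Egfr, Mup1, Derl3, Herpud1, Isg15, Zbp1, Clec4f, Selenbp2, Cyp7b1, Hsd3b5, Rnase4, Gja10, Elovl6, Pklr and Sdha. Without the series 1 sample only, the calls of Cdh1, C8b, Sec61g, Ssr4, Ang, Scara5, Adh6-ps1, Fasn, Slc17a8 and Cyp2b13 were lost, and without the series 2 sample only, those of Onecut1, Socs2, Rrn3, Rsad2 and Slc22a7. Each of these fits has 1 sample at ZT2. Leaving out 1 of the other libraries ended only the calls of Mup1 (adjusted p = 0.0566 to 0.0603 without ZT14, ZT18 or ZT22 of series 1 or ZT6 of series 2), of Hsd3b5 (0.0533 to 0.0606 without the same 4 or ZT14 of series 2) and of Gja10 (0.0516 to 0.0616 without ZT6, ZT14 or ZT22 of series 1 or ZT6, ZT10 or ZT14 of series 2). When the spread between the other times was counted in the error, 22 of the 92 lost their call, among them Egfr, Selenbp2, Cyp7b1, Cyp4a14, Ehhadh, Per1, Per3, Tef and Wee1 (adjusted p = 0.0511 to 0.261 over the 22). No difference changed sign in any of the 20 settings, and 51 of the 92 kept their call in each of them, among them C6, C9, Mup2, Xbp1, Ifit1, Fabp5, Cyp2b9, Cyp4a10, Nr1i3, Ppara, Inmt, Acot3, Scd1, Thrsp, Mat1a and Per2.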

How the data were processed

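Poly(A) RNA-Seq of 12 mouse livers was analysed, 2 at each of 6 times. The authors made TruSeq libraries, which do not keep strand, and aligned reads to mm9. The submitters' processing notes name CASAVA 1.8 and TopHat. The deposited signal is a gene's coverage in reads per base pair (rpbp), scaled by the authors to 10000000 uniquely mapped reads, and it was multiplied by 4 here to a scale of 40000000, which the study's methods use. The signal is scaled, so it does not hold each library's depth. The study's sequencing table lists read totals, which were not used here, and no counting interval was computed. The deposited table also holds the authors' own rhythm analysis (a phase, a score given as a fraction from 0 to 1 and a p-value), and none of these columns was used. Columns headed ZT20 were taken as ZT22, the time the labels give.

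The expression minimum was 8 rpbp in 1 sample or more, which 10198 of the 20069 genes exceeded. ZT2 was compared with the mean of the other 5 times, with ZT22 and with ZT6 in limma 3.58.1 (R 4.3.3, trended variance, 6 time groups) on log2(rpbp + 1), with Benjamini-Hochberg adjustment over all genes kept and a threshold of 0.05, and a fold change on that scale understates the change of low genes. The fit was tested on simulated data. Tables, sequences and figures were made with Python 3.11.15, numpy 2.4.6, pandas 2.3.3 and matplotlib 3.10.9. The members and the gene lists were chosen with earlier results of these data known. Genes were named by a rule: among called members with a mean of at least 8 rpbp and not on the acute phase list, the 12 with the largest gap and the 12 with the largest difference in each direction, and members on a list. This gave 224 genes, and 25 more were added after their values were seen (Onecut1, Cdh1, Id2, C6, C8b, C9, Hc, Hsd3b5, Nudt7, Mup2, Rnase4, Slc22a7, Dio1, Prlr, Alb, Clec4f, Aldh1a1, Aldh3a2, Gstt3, Ugt1a1, Slco1a4, Tomm40l, Rsad2, Per1 and Ifi47). Twin entries of 1 gene and overlapping genes share reads. Reads that fit several near-identical gene copies were not counted, as only uniquely mapped reads were used. All of these are uncertain as single genes. Gene positions are from GENCODE on NCBIM37 (mm9). Promoter windows are RefSeq's on GRCm38.p6, and the builds were not mixed. Alternatives were other scalings, pseudocounts and minimums, no trend, a replicate block, a fit of 2 groups and leaving out each library.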

Additional observations from a re-analysis of the deposited data

How the results depend on the processing

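The numbers of members and of calls kept within 1.5 times their values under both other scalings, both other pseudocounts, the 3 other minimums, no variance trend, the replicate block and the removal of both ZT22 samples. A fit of 2 groups, with the spread between the other times in the error, called 306 genes higher and 435 lower in place of 1016 and 1055, all of them among the calls reported. Leaving out 1 library gave 147 to 1061 genes higher and 346 to 1124 lower, and 1094 to 2159 genes above and 987 to 1594 below. The lowest counts of calls came without ZT2 of series 1, and the highest counts of members came where a single ZT2 value had to clear the others, 2159 above without ZT2 of series 2 and 1594 below without ZT2 of series 1. Median-of-ratios scaling gave 828 genes higher and 1282 lower, and upper quartile scaling 1138 and 1067. With the replicate number as a block, 911 were higher and 1020 lower, and of the genes described with values only Mup1 lost its call (adjusted p = 0.0512). Whether the numbers pair the samples cannot be settled with 2 samples a time. Over 15 pairs of times the correlation of same-numbered deviations ran from -0.153 to 0.206. Its median was -0.026, and 2 pairs were over 0.1. The ZT2 difference itself differed between the series in 1 gene at an adjusted p below 0.05 and in 283 at an unadjusted p below 0.05. Over the 249 named genes no difference changed sign, 9 lost their call under median-of-ratios scaling, 115 in the fit of 2 groups, and 145 and 127 without ZT2 of series 1 and series 2, where 1 sample is left at ZT2 and is assumed to vary like the other times. The cause was not tested. Counting error at low signal was not computed, since the deposited values are scaled and the study's read totals were not used here.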

Other observations

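Further groups at ZT2 are given as values. Genes named Zfp, which encode zinc finger proteins, had 22 of 126 tested above all other samples (3 of which passed the expression minimum through ZT2 only) and 5 below, with 11 called higher and 5 lower by limma and a median difference of 0.15. Mitochondrial ribosomal proteins had 3 of 75 higher and 2 lower, and 5 above and 2 below. Of all genes tested, 9.96% were called higher and 10.3% lower, and 10.4% were above and 9.58% below. Genes of the cytoskeleton and targets of SRF had 6 of 32 higher and 1 lower (median 0.19), with Actb, Tpm1 and Srf itself among the members above. Both symbol families were drawn up after values were seen.

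Sums of the remaining cell type markers overlapped between ZT2 and the other times. Cholangiocyte markers summed to 162 and 263 rpbp at ZT2 and 103 to 179.5 elsewhere, adipocyte markers to 2910 and 1777 rpbp against 2681 to 7475, and red cell markers to 398 and 515 rpbp against 354 to 1177. Neutrophil markers summed to 21.9 and 27.0 rpbp against 5.7 to 26.4.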
